A study of Homo sapiens with 5 samples.

Results

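The unfolded protein and amino acid stress response was followed through 38 genes in D54 cells carrying control shRNA or TIP-1 shRNA. The genes were taken from a list of names and matched to array rows annotated to 1 gene symbol, with the brightest row over the 5 arrays standing for each gene. All 38 were found, among 18417 genes measured in this way. D54 is a long-established human glioma line, and TIP-1 is a small PDZ-domain protein encoded by TAX1BP3. The controls were 2 independent D54 clones carrying a control shRNA (control 1 and control 2). The other group was 3 D54 samples carrying TIP-1 shRNA, each with a different shRNA sequence (shRNA 1, shRNA 2 and shRNA 3). All 5 were grown overnight after trypsin treatment before total RNA was taken, and the labels name no drug, starvation or other stressor. One array was run per sample, so a p-value measures the spread between clones and between shRNAs, and an shRNA cannot be told apart from its culture.

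Each array gave 33297 log2 signals, with medians between 7.88 and 7.98. The TAX1BP3 row, whose annotation also carries a read-through transcript, read 12.05 and 12.10 on the control arrays, then 9.81, 9.61 and 9.55 for shRNAs 1 to 3, which matched the labels. It was the 1 row called over the whole table (difference -2.42, SE 0.10, limma adjusted p = 0.011), and lost that call without control 1, control 2 or shRNA 2. Of the glial markers, CD44 (13.73 to 13.80) and VIM (13.84 to 14.02) were bright on every array, whereas GFAP (7.86 to 8.14) and NES (7.78 to 8.06) lay near the array medians. OLIG2 (7.13 to 7.50), SOX2 (7.05 to 7.26), FABP7 (6.27 to 6.49) and S100B (6.23 to 6.31) lay below the array medians, in the range of the markers of other cell types, so 6 of the 8 glial and neural stem markers were not bright. The 3 leukocyte markers matched, of 4 listed, read 6.66 to 8.65, the 3 epithelial ones 5.88 to 7.72 and the 3 endothelial ones 6.61 to 7.29. The summed log2 signal of the 8 glial and neural stem markers was 71.02 to 71.03 in the controls and 70.04 to 71.06 with TIP-1 shRNA. That of the leukocyte markers was 21.6 to 22.95 and 20.8 to 22.7, that of the epithelial markers 20.95 to 21.08 and 20.01 to 20.90, and that of the endothelial markers 20.9 to 21.1 and 20.7 to 21.03. None of these markers passed the test. The epithelial marker EPCAM read 6.75 in both controls and 6.55, 6.22 and 5.88 under TIP-1 shRNA (difference -0.53, limma adjusted p = 0.707), and the leukocyte marker PTPRC ran from 6.84 in shRNA 3 to 8.65 in control 1. Their part in the results was not tested. The table carries no detection call, so none of these rows could be called absent. In such bulk RNA, fewer cells expressing a gene and less RNA per cell cannot be told apart.

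The endoplasmic reticulum, or ER, folds secreted and membrane proteins, and 3 sensors in its membrane report when folding falls behind. IRE1 (gene ERN1) splices the XBP1 mRNA, ATF6 is cut free to enter the nucleus, and PERK (gene EIF2AK3) phosphorylates a translation factor. The first 2 of these raise the genes of chaperones and of ER-associated degradation, or ERAD. PERK, like the kinase that senses amino acid shortage, slows translation while favouring that of ATF4, which then drives genes for amino acid supply, serine synthesis and stress signalling. In glioma, BiP and the serine enzyme PHGDH are often abundant. The array measures the amount of each transcript, and neither XBP1 splicing nor the cutting or phosphorylation of the sensors was measured.

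The chaperone genes are known for a shared promoter element, shown here because the folding genes hold it far more often than other genes. This feature owes nothing to the arrays. Because the element is already known from such genes, its high share among them is a description and not an independent result. The 250 bases before each RefSeq transcript start (build GRCh38.p14) were searched on both strands for exact matches. The ER stress response element, ERSE, is CCAAT and CCACG held 9 bases apart, and ERSE-II is ATTGG and CCACG held 1 base apart. The UPRE, bound by XBP1 and ATF6, was searched as TGACGTGG, and the CARE, bound by ATF4 with a C/EBP partner, as TGATGNAA. Promoters were found for 35 of the 38 members, all but PSPH, SHMT2 and ALDH1L2. In the windows below, capitals mark the match, read 5′ to 3′ on the gene's strand, so that an element in reverse appears as its reverse complement.
HSPA5 ERSE, chr9:125241376-125241424, minus strand: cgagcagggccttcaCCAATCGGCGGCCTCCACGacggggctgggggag
PDIA6 ERSE, chr2:10812838-10812886, minus strand: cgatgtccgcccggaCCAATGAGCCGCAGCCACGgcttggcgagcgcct
HSP90B1 first ERSE, chr12:103930201-103930249, plus strand: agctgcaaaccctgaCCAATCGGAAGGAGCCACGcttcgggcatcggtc
HSP90B1 second ERSE in reverse, chr12:103930306-103930354, plus strand: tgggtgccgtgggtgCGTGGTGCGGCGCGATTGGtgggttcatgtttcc
CALR ERSE in reverse, chr19:12938369-12938417, plus strand: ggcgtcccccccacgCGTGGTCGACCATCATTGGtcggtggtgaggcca
CANX ERSE, chr5:179698763-179698811, plus strand: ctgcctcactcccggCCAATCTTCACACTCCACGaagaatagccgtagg
CRELD2 ERSE in reverse, chr22:49918539-49918587, plus strand: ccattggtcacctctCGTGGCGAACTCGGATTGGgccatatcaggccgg
XBP1 ERSE, chr22:28800588-28800636, minus strand: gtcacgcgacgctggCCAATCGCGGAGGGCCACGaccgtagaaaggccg
HERPUD1 ERSE-II, chr16:56932010-56932050, plus strand: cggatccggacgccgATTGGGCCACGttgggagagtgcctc
HYOU1 ERSE-II in reverse, chr11:119057259-119057299, minus strand: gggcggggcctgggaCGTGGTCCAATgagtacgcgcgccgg
SDF2L1 ERSE-II in reverse, chr22:21642099-21642139, plus strand: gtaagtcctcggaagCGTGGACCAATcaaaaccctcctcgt
CHAC1 CARE in reverse, chr15:40953247-40953284, plus strand: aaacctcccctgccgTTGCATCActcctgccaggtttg
ASNS CARE, chr7:97872454-97872491, minus strand: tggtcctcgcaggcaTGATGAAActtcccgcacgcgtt

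An exact ERSE lay in 7 of the 35 members with a promoter and in 25 of all 27305 genes with one, or 0.0916%. Within the 16 folding and ERAD genes the share was 37.5% (6 genes), the seventh was XBP1, and no ATF4 target held it. ERSE-II was found in 3 members (HERPUD1, HYOU1 and SDF2L1), against 0.0659% of all genes. HYOU1 held a second copy that overlaps its UPRE, the single UPRE among the members, against 0.78% of all genes. The CARE was found in 3 members (CHAC1, ASNS and HERPUD1), or 8.57%, against 3.89% of all genes. A match describes letters only, and a gene without one may carry the element outside this window.

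No member passed the test between TIP-1 shRNA and control shRNA. Differences are the mean of the 3 TIP-1 shRNA arrays minus the mean of the 2 controls, in log2 signal, and calls are limma tests over all rows at a Benjamini-Hochberg adjusted p under 0.05. By that rule 0 of the 38 genes were called, against 0.003% of all rows (1 of 33297). At an unadjusted limma p under 0.05 the count was also 0 of 38, against 6.02% of all genes. The lowest adjusted p among the members was 0.707, and the differences ran from -0.20 for HSPA5 to 0.41 for PSPH.

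The intervals limit how large a change these arrays leave room for. The 95% interval of the difference stayed inside 2-fold in either direction for 38 of 38 members, against 97.6% of all genes. It stayed inside 1.5-fold for 37, or 97.4%, against 88.4% of all genes, and PSPH was the exception. The shares of all genes include dim ones, and genes of like brightness to the members were not tested apart. The test itself had little reach for small changes. Simulated arrays had the same rows, with 200 changed in each set. In them limma called 2.8% of rows changed by 0.5 log2 units and 71.8% of rows changed by 1. The adjusted p is harder to pass where fewer rows change. Only 1 row was called in the real arrays, so these shares may overstate the reach here.

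**Figure D1:**
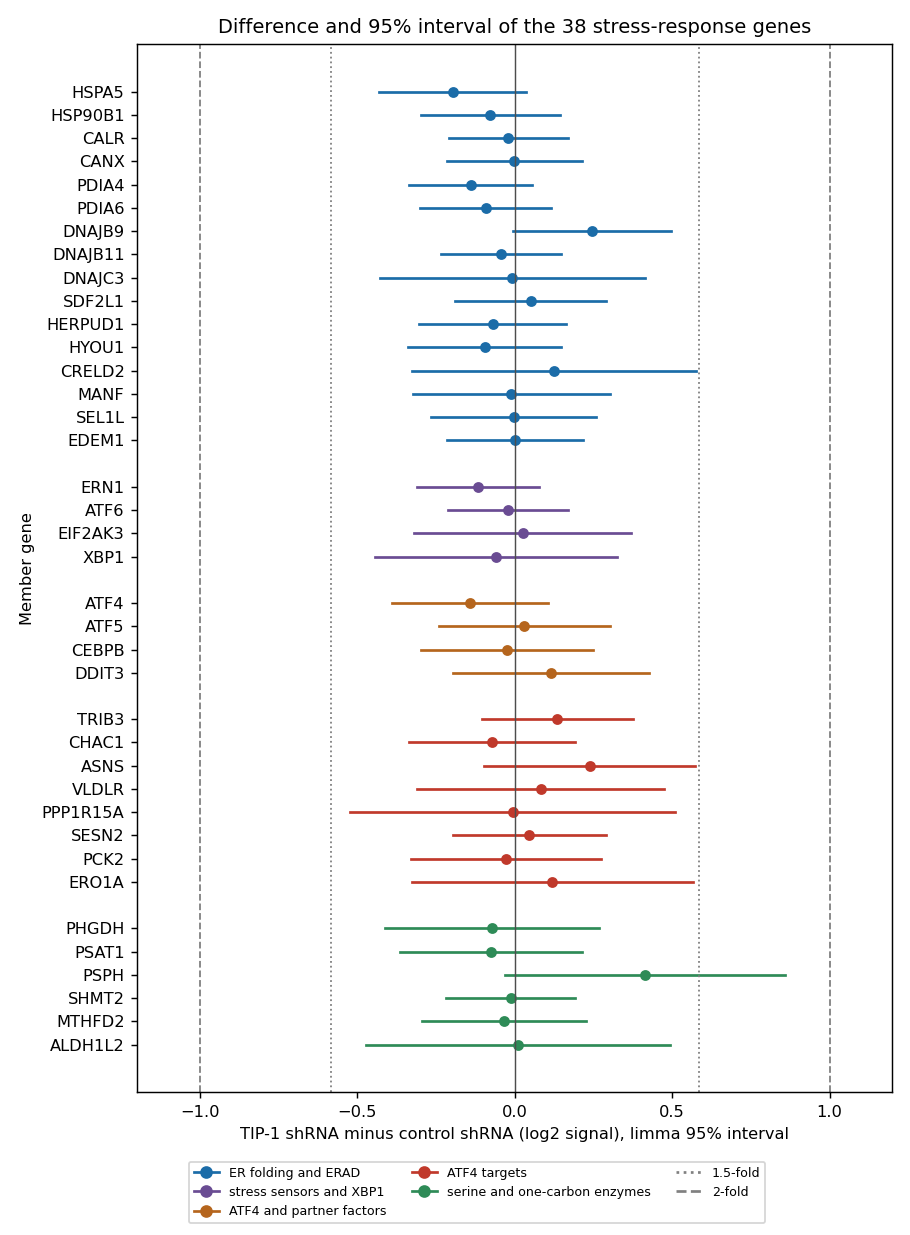
Difference between TIP-1 shRNA and control shRNA (x axis, log2 signal) for the 38 genes (y axis), with points for the estimate, bars for limma's 95% interval and colours for the role of the gene; dotted and dashed lines mark 1.5-fold and 2-fold. Every interval holds 0 and lies inside the 2-fold lines, and PSPH alone reaches past 1.5-fold.

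By direction, 14 members were above 0 and 24 below 0, beside 47.6% of all genes above 0 and 52.4% below. These directions rest on differences too small for their error. After each array was centred on its own median, which raised the median difference of all genes from -0.01 to 0.05, the same count was 27 above and 11 below. The 3 shRNA arrays all lay above both controls for 2 members, DNAJB9 and ASNS, where 12.5% of all genes did so. They all lay below both controls for 5, namely HSPA5, PDIA4, PDIA6, DNAJB11 and ERN1, where 14.1% of all genes did so. Neither share exceeded that of all genes, but these shares vary with brightness. Among the 4604 brightest of all genes, 17.7% were all above and 7.30% all below. The direction count varies with brightness as well: of these 4604 genes, 2837 were above 0 and 1767 below 0.

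The transcripts of the sensors ATF6 and ERN1 differed little between the groups. ATF6 read 11.81 and 11.82 on the control arrays, then 11.82, 11.81 and 11.76 for shRNAs 1 to 3 (difference -0.02, 95% interval -0.21 to 0.17, limma adjusted p = 0.955). ERN1, the gene of IRE1, read 8.80 in both controls and 8.68, 8.72 and 8.64 with TIP-1 shRNA. All 3 shRNA arrays were below both controls, and the difference was -0.12 (SE 0.08, limma adjusted p = 0.742).

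The other sensor and the factor made from spliced mRNA varied more between the control clones than between the groups. EIF2AK3, which encodes PERK, read 10.10 in control 1 and 9.66 in control 2, and 9.88, 9.85 and 9.99 in shRNAs 1, 2 and 3. XBP1 read 11.38 and 10.89 in controls 1 and 2, and 11.19, 11.01 and 11.03 with TIP-1 shRNA. For both genes the 3 shRNA arrays lay between the 2 controls. The differences were 0.03 (95% interval -0.32 to 0.37) for EIF2AK3 and -0.06 (-0.44 to 0.32) for XBP1, each smaller than the SD between the controls, at 0.31 and 0.35. The difference of XBP1 came to -0.31 without control 2 and to 0.18 without control 1.

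Among the chaperones, HSPA5 was the member with the lowest difference. It encodes BiP, the Hsp70 chaperone of the ER lumen that also holds the sensors inactive. Its signal was 13.71 and 13.75 on the control arrays, then 13.62, 13.57 and 13.41 for shRNAs 1 to 3, so each TIP-1 shRNA array lay below both controls and shRNA 3 was the lowest. The difference was -0.20 (SE 0.10, 95% interval -0.43 to 0.04), which is 1.15-fold lower, and did not pass (limma adjusted p = 0.713). It lay between -0.24 and -0.14 when any 1 array was left out.

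The 250 bases before the HSPA5 start, on the minus strand at chr9:125241344-125241593 (GRCh38.p14), are printed because this gene led the chaperones and is the usual reporter of the response; capitals mark its exact ERSE, which begins 66 bases before the start.
HSPA5 promoter: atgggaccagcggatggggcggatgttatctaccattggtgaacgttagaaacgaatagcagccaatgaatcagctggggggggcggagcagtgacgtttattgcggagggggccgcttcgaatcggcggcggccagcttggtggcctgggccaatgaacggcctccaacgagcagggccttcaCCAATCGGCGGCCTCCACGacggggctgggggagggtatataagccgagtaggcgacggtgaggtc

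Both protein disulfide isomerases of the list were also lowest in shRNA 3 and below both controls on every shRNA array. PDIA4 read 12.50 and 12.51 on the control arrays, then 12.41, 12.35 and 12.32 for shRNAs 1 to 3 (difference -0.14, SE 0.08, limma adjusted p = 0.722). PDIA6 read 12.71 and 12.70 against 12.68, 12.62 and 12.54 (-0.09, SE 0.09). DNAJB11, a BiP co-chaperone, read 11.89 and 11.93 against 11.87, 11.88 and 11.84, a smaller gap of -0.04. These 3 and HSPA5 had all TIP-1 shRNA arrays below both controls, that is 4 of the 16 folding genes, or 25%, beside 14.1% of all genes. These 4 were among the 4604 brightest of all genes, of which 7.30% had all TIP-1 shRNA arrays below both controls. None of the 4 passed the test.

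The other bright chaperones overlapped between the groups. HSP90B1, the ER form of Hsp90, read 13.47 and 13.38 under control shRNA and 13.42, 13.36 and 13.26 under TIP-1 shRNA (difference -0.08, SE 0.09). Of the lectin chaperones of glycoprotein folding, CALR differed by -0.02 (95% interval -0.21 to 0.17) and CANX by -0.00 (-0.22 to 0.21). HYOU1, a large Hsp70 relative, differed by -0.10 and the ubiquitin-like membrane protein HERPUD1 by -0.07. The ERAD genes SEL1L, a scaffold of the ubiquitin ligase, and EDEM1, a mannosidase-like protein, differed by -0.00 and 0.00.

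DNAJB9 was the folding gene with all 3 shRNA arrays on the higher side. It encodes ERdj4, a co-chaperone that keeps IRE1 inactive and is an XBP1 target. Its signal was 8.64 and 8.43 on the control arrays, then 8.75, 8.73 and 8.87 for shRNAs 1 to 3. The difference was 0.25 (SE 0.10, 95% interval -0.01 to 0.50), or 1.19-fold, and the gene did not pass (limma adjusted p = 0.707). The controls differed from each other by 0.21, and the difference was 0.14 without control 2 and 0.35 without control 1.

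The secreted or small ER proteins did not separate the groups. CRELD2 read 9.57 and 9.31 on the control arrays, then 9.80, 9.66 and 9.23 for shRNAs 1 to 3, so shRNAs 1 and 2 lay above both controls and shRNA 3 below both. MANF, a secreted protective factor, read 11.19 and 10.97 against 11.20, 11.12 and 10.88, with shRNA 3 again below both. SDF2L1, a BiP co-factor, differed by 0.05 (SE 0.10). DNAJC3, an inhibitor of PERK, read 10.36 and 9.83 in the controls, which spanned all 3 TIP-1 shRNA arrays.

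Set against both controls one shRNA at a time, the folding genes differed between arrays, although 1 array per shRNA allows no test. In shRNA 3, 12 of the 16 folding genes lay below both controls and 1 above, and their median difference from the control mean was -0.17, beside -0.02 for all genes. Over all genes, 41.9% lay below both controls in this array and 35.5% above. Of 28 other ER folding and ERAD genes of the wider pathway, 10 lay below both controls in this array and 10 above, with a median of 0.03. In shRNA 1 the 16 folding genes were 4 below and 6 above (all genes 31.2% and 32.2%). In shRNA 2 they were 7 below and 5 above (37.7% and 30.8%). Their median differences there were 0.01 and 0.01. The 12 genes below both controls in shRNA 3 were HSPA5 (-0.32), CRELD2 (-0.21), MANF (-0.20), PDIA4 (-0.18), SEL1L, HSP90B1, HYOU1 and PDIA6 (each -0.17), HERPUD1 (-0.16), EDEM1 (-0.09), DNAJB11 (-0.07) and CALR (-0.04).

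Bright and dim rows shifted differently in shRNA 3, so the folding genes were also set beside genes of like brightness. Of the 16 folding genes, 12 were among the 4604 brightest of all genes, and 10 of those 12 lay below both controls in shRNA 3. Of these 4604 genes, 26.8% did so, and their median difference from the control mean in that array was 0.04, so bright genes as a whole were displaced the other way. In shRNA 2, 7 of the same 12 folding genes lay below both controls, beside 24.1% of the 4604, and in shRNA 1 it was 4 of the 12 beside 25.7%. The folding median over the 3 shRNAs depended on the scaling. It was -0.02 as deposited (4 of 16 genes higher), -0.04 with quantile normalization (4 of 16) and 0.05 with median centring (10 of 16), which put the median of all genes at 0.05. With array weights it was 0.0011 (8 of 16).

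**Figure D2:**
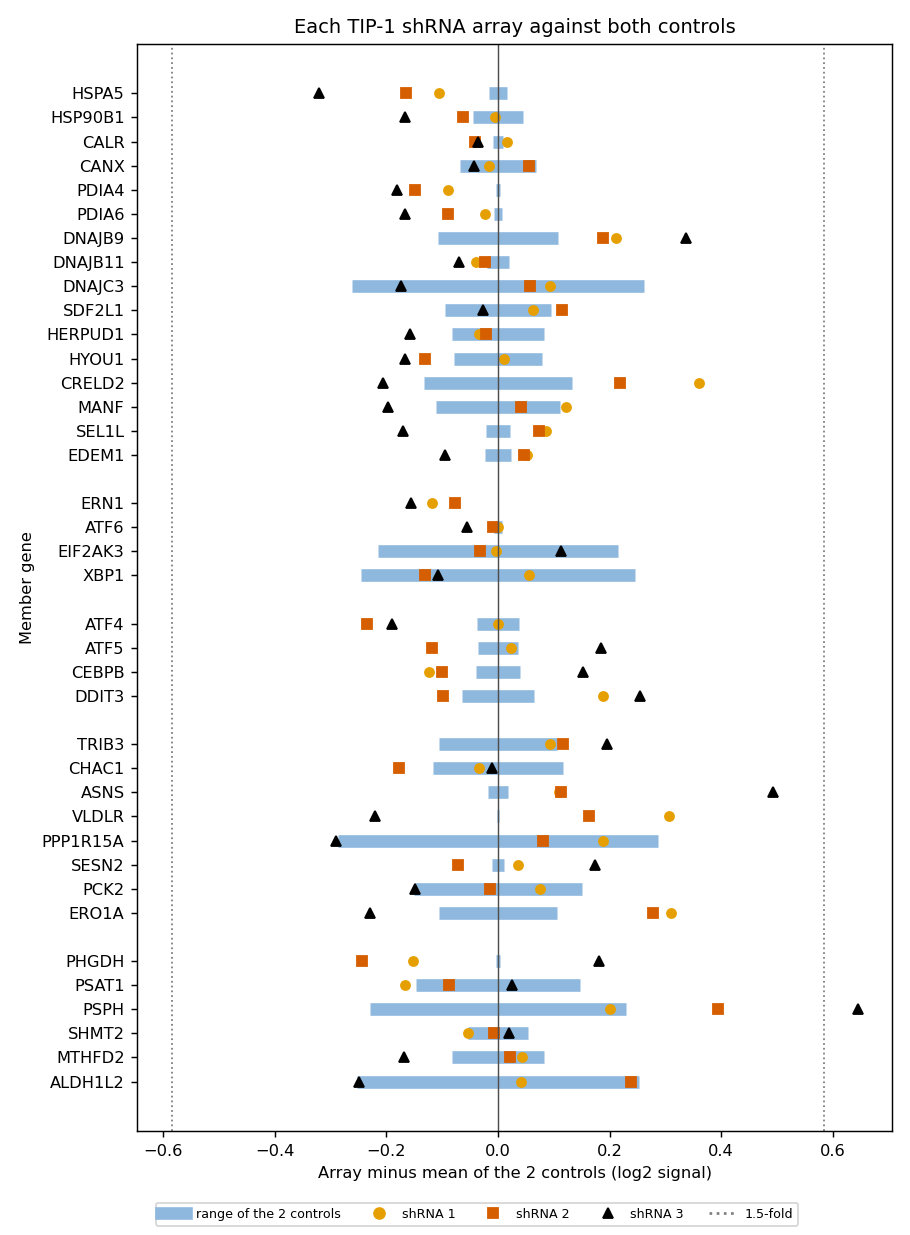
Each TIP-1 shRNA array minus the mean of both controls (x axis, log2 signal) for the 38 genes (y axis); blue bars span the 2 controls, and the circle, square and triangle are shRNAs 1, 2 and 3. The triangle of shRNA 3 lies left of the bar for 12 of the 16 folding genes at the top, and of all points only PSPH in shRNA 3 crosses the dotted 1.5-fold lines.

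Over the 3 shRNAs, ATF4 and its partner factors were split, with 2 above 0 and 2 below. By the brightest row of each gene, 4 of the 4 lay below both controls in shRNA 2 (37.7% of all genes). In shRNA 3, 3 of the 4 lay above both (35.5%). ATF4 read 11.27 and 11.19 on the control arrays, then 11.23, 11.00 and 11.04 for shRNAs 1 to 3 (difference -0.14, SE 0.10, 95% interval -0.39 to 0.11, limma adjusted p = 0.757). A second, dimmer ATF4 row gave the opposite sign, 0.07 (limma adjusted p = 0.841), so the direction of ATF4 is not settled. That row read 10.29 and 10.25 on the control arrays, then 10.28, 10.35 and 10.38 for shRNAs 1 to 3. It lay above both controls in shRNAs 2 and 3, so both counts above depend on the row used. ATF4 is controlled mainly at translation, which the array does not see.

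The 3 factors that pair with or follow ATF4 were highest in shRNA 3. DDIT3, the pro-apoptotic factor CHOP, read 8.99 and 9.12 on the control arrays, then 9.24, 8.96 and 9.31 for shRNAs 1 to 3 (difference 0.11, SE 0.13). ATF5 read 9.85 and 9.92 against 9.91, 9.77 and 10.07. CEBPB, a C/EBP partner, read 10.36 and 10.44 against 10.28, 10.30 and 10.56. All 3 lay above both controls in shRNA 3 and below both in shRNA 2. The brighter ATF4 row was also below both in shRNA 2, but the dimmer one was above both. The differences of the 3 factors over the 3 shRNAs, 0.11, 0.03 and -0.02, did not pass.

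Among the ATF4 targets, ASNS was the one with all shRNA arrays above both controls. It encodes asparagine synthetase, the textbook gene of the amino acid response, and carries the CARE printed above. Its signal was 8.08 and 8.11 on the control arrays, then 8.21, 8.21 and 8.59 for shRNAs 1 to 3. The difference was 0.24 (SE 0.14, 95% interval -0.10 to 0.57), or 1.18-fold, and did not pass (limma adjusted p = 0.723). It rested mostly on shRNA 3, since the difference was 0.11 without that array.

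The pseudokinase TRIB3 and the stress sensor SESN2, which restrains mTORC1, were also highest in shRNA 3. TRIB3 read 8.83 and 9.04 under control shRNA and 9.02, 9.05 and 9.13 under TIP-1 shRNA (difference 0.14, SE 0.10, limma adjusted p = 0.758), and the difference was 0.03 without control 1 and 0.24 without control 2. SESN2 read 8.43 and 8.45 against 8.47, 8.36 and 8.61 (0.05, SE 0.10). CHAC1, which degrades glutathione and holds the other CARE, read 8.48 and 8.72 against 8.57, 8.42 and 8.59 (-0.07, SE 0.11). Among the shRNAs it was highest in shRNA 3 too, but control 2 lay above all 3.

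ERO1A and VLDLR split the shRNAs. ERO1A, the oxidase that feeds disulfide formation, read 11.14 and 10.93 on the control arrays, then 11.35, 11.31 and 10.81 for shRNAs 1 to 3. VLDLR, a lipoprotein receptor, read 9.08 and 9.07 against 9.38, 9.24 and 8.85. In both, shRNAs 1 and 2 lay above both controls and shRNA 3 below both, so the mean differences of 0.12 and 0.08 describe no single array. PPP1R15A, the phosphatase subunit GADD34 that ends the response, read 9.99 and 10.56 in the controls, and its difference of -0.01 had an interval of -0.52 to 0.51. PCK2, the mitochondrial PEP carboxykinase, differed by -0.03 (SE 0.12).

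The first enzyme of serine synthesis was displaced in opposite directions between arrays. PHGDH catalyses this committed step from glycolysis to serine, and read 11.67 and 11.68 on the control arrays, then 11.52, 11.43 and 11.85 for shRNAs 1 to 3. Thus shRNAs 1 and 2 were below both controls and shRNA 3 above both, and the difference was -0.07 (SE 0.14, 95% interval -0.41 to 0.27, limma adjusted p = 0.905). PSAT1, the next enzyme, read 10.95 and 11.24 under control shRNA and 10.93, 11.01 and 11.12 under TIP-1 shRNA (-0.08, SE 0.12).

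PSPH, the last enzyme of serine synthesis, had the highest difference of all members. It read 10.13 and 9.67 on the control arrays, then 10.10, 10.29 and 10.54 for shRNAs 1 to 3. The groups overlapped, because shRNA 1 lay below control 1. The difference was 0.41 (SE 0.18, 95% interval -0.03 to 0.86), or 1.33-fold, with a limma adjusted p of 0.707. It was 0.64 without control 1 and 0.18 without control 2, and a second PSPH row gave 0.35. PSPH has a closely related pseudogene, and signal from it could not be told apart.

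The mitochondrial folate enzymes that turn serine into carbon units did not separate the groups. SHMT2 read 12.21 and 12.32 under control shRNA and 12.22, 12.26 and 12.29 under TIP-1 shRNA (difference -0.01, 95% interval -0.22 to 0.19). MTHFD2 read 11.07 and 10.90 against 11.03, 11.01 and 10.82 (-0.03, SE 0.11), and its second row gave -0.15. ALDH1L2 had the dimmest signal of the members on every array and the controls differed by 0.50, so its difference of 0.01 came with an interval of -0.47 to 0.49.

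**Figure D3:**
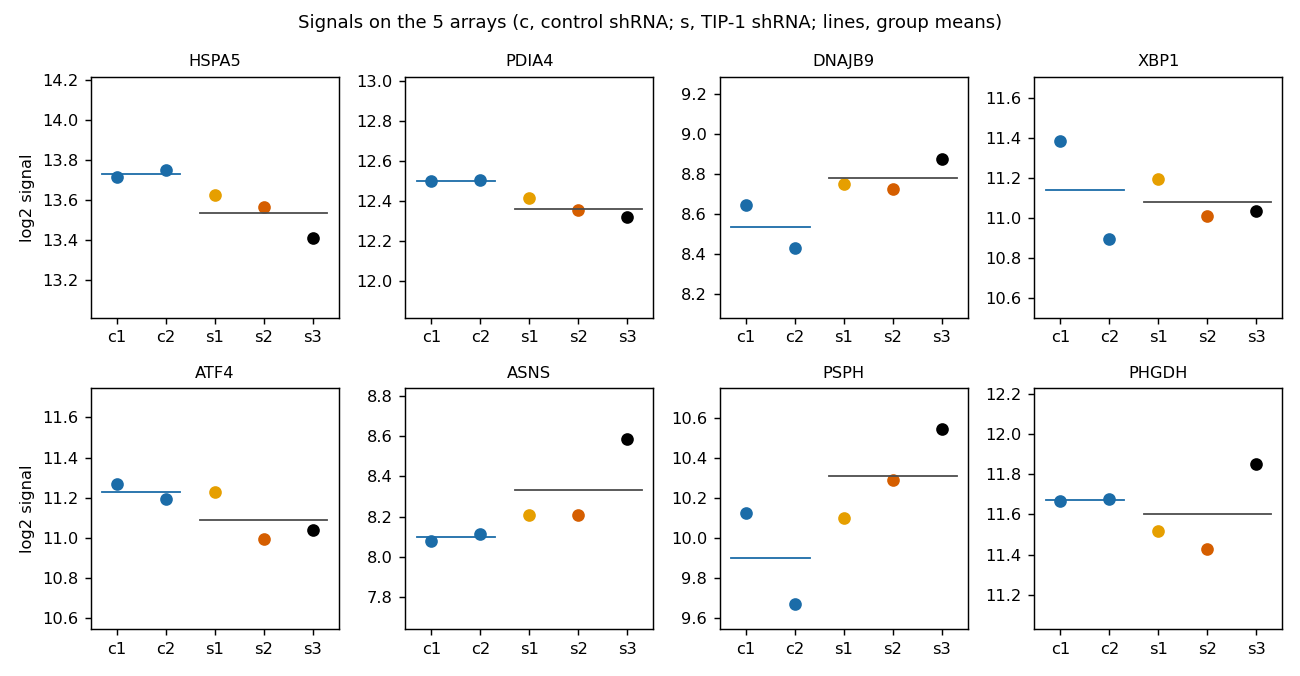
Log2 signal (y axis) of 8 of the genes on the 5 arrays (x axis, c1 and c2 for the controls, s1 to s3 for shRNAs 1 to 3), with lines for group means and the same span of signal in each panel. HSPA5 and PDIA4 have all shRNA arrays below both controls, DNAJB9 and ASNS have them above, and XBP1 and PSPH differ widely between the controls.

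Setting the branches side by side, the median difference was -0.02 for the 16 folding and ERAD genes, 0.06 for the 8 ATF4 targets and -0.02 for the 6 serine and one-carbon enzymes, beside -0.01 for all 18417 genes. The folding genes were 12 below 0 and 4 above, the ATF4 targets 3 and 5, and the enzymes 4 and 2. Of the 4604 brightest of all genes, which hold 12 of the 16 folding genes, 1767 were below 0 and 2837 above. In shRNAs 1, 2 and 3 the medians from the control mean were 0.01, 0.01 and -0.17 for folding genes, 0.10, 0.10 and -0.08 for ATF4 targets, and -0.01, 0.01 and 0.02 for the enzymes. The 3 shRNAs share the same 2 controls, so these medians are not independent. Over the groups, the folding median moved to 0.00 and that of the ATF4 targets to 0.11 without shRNA 3, and the latter to -0.00 without shRNA 1. The median of the ATF4 targets less that of the folding genes, each taken from the mean of all 5 arrays, was -0.16 and -0.01 in controls 1 and 2, and 0.02, -0.01 and 0.06 in shRNAs 1 to 3. On this measure shRNA 2 lay between the controls. For the serine and one-carbon enzymes less the folding genes the control arrays gave -0.05 and -0.02 and shRNAs 1 to 3 gave -0.08, -0.01 and 0.16. Thus shRNA 3 lay above both controls, shRNA 2 slightly above both and shRNA 1 below both.

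**Figure D4:**
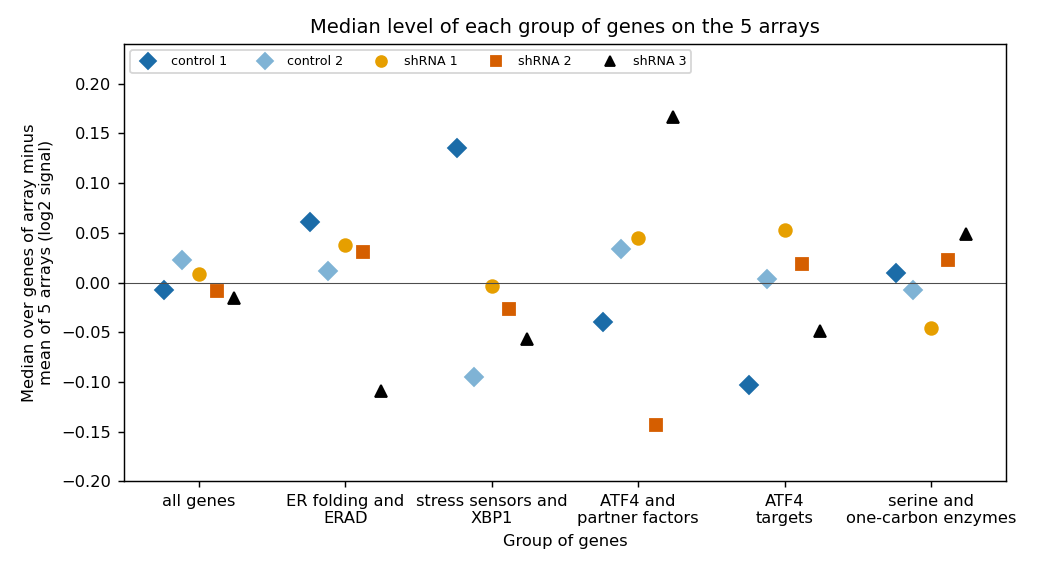
Median over genes of each array's deviation from the mean of the 5 arrays (y axis, log2 signal) for all 18417 genes and for the 5 groups of members (x axis), with 1 point per array. Folding genes are lowest in shRNA 3 (-0.11), ATF4 and its partner factors are highest there (0.17), and for sensors and XBP1 the controls lie farthest apart (0.14 and -0.09).

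A displacement of at least 1.5-fold from the control mean, outside both controls, occurred in 0 members in shRNA 1 (0.548% of all genes higher, 0.874% lower) and 0 in shRNA 2 (0.679% and 1.08%). In shRNA 3 it occurred for PSPH alone, on the higher side (2.43% of all genes higher, 0.842% lower). With 38 members these counts are near the shares of all genes.

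The wider pathway was read from 72 further genes found of 80 listed, and 0 were called by limma over all rows, with 3 at an unadjusted p under 0.05 (1 higher, 2 lower). Over all genes that share was 6.02%. The cystine and glutamate exchanger SLC7A11, an ATF4 target, had the smallest p of these. It read 9.91 and 10.23 on the control arrays, then 9.05, 9.39 and 8.44 for shRNAs 1 to 3 (difference -1.11, SE 0.27, limma adjusted p = 0.707). All 3 were below both controls, opposite to ASNS. SEC24D, a coat protein of vesicles leaving the ER, differed by -0.36 (SE 0.12) and the cysteinyl-tRNA synthetase CARS1 by 0.35 (SE 0.11), neither with any overlap between the groups. The next 3 were SELENOS, an ERAD selenoprotein (0.29, SE 0.12), the glycine transporter SLC6A9 (-0.24, SE 0.11) and GFPT1, the entry enzyme of the hexosamine pathway (-0.21, SE 0.11). Several of these rested on 1 control: without control 1 and without control 2, SEC24D came to -0.20 and -0.51, SELENOS to 0.46 and 0.12, and GFPT1 to -0.08 and -0.33.

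Over all 72 genes, 8 had the shRNA arrays all above both controls (11.1%, beside 12.5% of all genes) and 11 all below (15.3%, beside 14.1%). Aminoacyl-tRNA synthetases, which charge tRNAs and are raised by ATF4, had a median difference of 0.07 over 12 genes, 8 above 0 and 4 below. CARS1, MARS1, WARS1 and SARS1 had all shRNA arrays above both controls, or 33.3% of the 12, and IARS1 had them all below. Of the 22 other genes of the integrated stress response, 0 had them all above and 4 all below. The other ER folding and ERAD genes had a median of -0.04 (28 genes), the other genes of the integrated stress response 0.01 (22) and the other one-carbon enzymes -0.00 (10). None of these 72 passed.

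shRNA 3 stood apart again for some of these genes, named here after their values were seen. In that array 5 of the 72 exceeded the control mean by 1.5-fold or more and lay outside both controls, where 2.43% of all genes did so. GDF15, a secreted stress cytokine, read 9.27 and 9.63 in the controls, 9.11 and 9.47 in shRNAs 1 and 2 and 10.67 in shRNA 3, or 2.33-fold above the control mean. KLHL24 was 2.08-fold above, the small stress-induced chromatin protein NUPR1 1.97-fold, the collagen-folding isomerase FKBP14 1.52-fold and CREB3L2, an ATF6-like membrane factor, 1.5-fold. SLC7A11 (3.08-fold) and IARS1 (1.54-fold) were below in the same array, 2 of the 72 beside 0.842% of all genes. The first 5 were not above both controls in shRNA 1 or shRNA 2. KLHL24, NUPR1, FKBP14 and CREB3L2 lay below both controls in each of those arrays, opposite to shRNA 3, and GDF15 did so in shRNA 1. Over the 3 shRNAs none of the 5 passed (limma adjusted p from 0.864 to 0.999).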

How the data were processed

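RNA from 5 D54 cultures was hybridised to arrays, 1 per sample, that the design text names as Affymetrix human exon arrays. The row identifiers resemble those of a gene-level array of the same maker, so which array was used is not settled here. Per the labels, the authors processed the arrays with the Exon Array Computational Tool and deposited log2 signals per row. The sources used here do not give the tool's version, normalization or genome build, and arrays carry no read depth. Of 33297 rows, 19460 carried 1 gene symbol and only these name genes. Each gene's brightest row over the 5 arrays was used, as deposited. The 3 TIP-1 shRNA arrays were compared with both controls in limma 3.58.1 (R 4.3.3; lmFit and eBayes, two-sided, Benjamini-Hochberg over all rows, adjusted p under 0.05). The step was tested on 10 simulated sets with 200 changed rows each, with 7.9 false calls per set. Members and gene lists were chosen with earlier results of these data known. All members are accounted for. Those with the 8 smallest p, those 1.5-fold from the control mean in any array, and the sensors and main regulators are given in full, as are the 6 wider-pathway genes with the smallest p. Alternatives covered normalization, the replicate block, array weights, variance trend, dim rows, several rows per gene and each array left out. Replicate numbers were not taken to pair the samples, which were independent control clones and different shRNA sequences. Deviations of same-numbered arrays from their group means correlated at 0.049 and -0.053. The deviations of 2 controls mirror each other, so these correlations cannot decide whether the samples were paired. RefSeq promoters were searched for exact motifs. Protein sequences were not analysed here.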

Additional observations from a re-analysis of the deposited data

How the results depend on the processing

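No member and no gene of the wider pathway was called by limma under any of the 12 alternatives. Of 527 values for 44 genes, 452 kept their direction and 75, in 25 genes, changed sign, with reported differences of at most 0.125 in size. The direction of these genes is therefore not settled, and the cause was not tested. With median centring, which raised the median of all genes to 0.05, the signs that changed gave 0.041 for CALR, 0.060 for CANX, 0.017 for DNAJB11, 0.053 for DNAJC3, 0.050 for MANF, 0.058 for SEL1L, 0.040 for ATF6, 0.00058 for XBP1, 0.037 for CEBPB, 0.054 for PPP1R15A, 0.032 for PCK2, 0.048 for SHMT2, 0.027 for MTHFD2, and the medians became 0.037 for the serine and one-carbon enzymes (from -0.024), 0.045 for the folding genes (from -0.016) and 0.13 for the ATF4 targets (from 0.064). With quantile normalization they gave 0.0020 for CANX, -0.031 for EDEM1, -0.0083 for EIF2AK3, -0.0016 for ATF5. With array weights they gave 0.028 for CANX, 0.045 for DNAJC3, 0.039 for MANF, 0.054 for SEL1L, -0.012 for EIF2AK3, -0.053 for ATF5, 0.074 for PPP1R15A, -0.021 for SESN2, 0.010 for MTHFD2. The replicate block used numbers that were not taken to pair the samples. Only the TIP-1 shRNA group has a replicate 3, so shRNA 3 adds nothing to the block's differences, which repeat those without shRNA 3. The block gave 0.020 for CANX, 0.075 for DNAJC3, 0.081 for MANF, 0.080 for SEL1L, -0.019 for EIF2AK3, -0.048 for ATF5, 0.135 for PPP1R15A, -0.019 for SESN2, 0.030 for PCK2, 0.033 for MTHFD2, and raised the rows called from 1 to 15, with array weights giving 2. With each array left out in turn, rows called lay between 0 and 6, being 0 without control 1, control 2 or shRNA 2 and 6 without shRNA 3. The differences that changed sign when an array was left out ranged from -0.070 to 0.068 for CANX, -0.269 to 0.254 for DNAJC3, -0.045 to 0.145 for SDF2L1, -0.153 to 0.011 for HERPUD1, -0.122 to 0.099 for MANF, -0.306 to 0.185 for XBP1, -0.048 to 0.104 for ATF5, -0.117 to 0.048 for MTHFD2, -0.0086 to 0.290 for CRELD2, -0.048 to 0.080 for SEL1L, -0.024 to 0.049 for EDEM1, -0.191 to 0.241 for EIF2AK3, -0.112 to 0.027 for CEBPB, -0.191 to 0.043 for CHAC1, -0.293 to 0.279 for PPP1R15A, -0.180 to 0.121 for PCK2, -0.224 to 0.071 for PSAT1, -0.068 to 0.041 for SHMT2, -0.243 to 0.262 for ALDH1L2, -0.029 to 0.235 for VLDLR, -0.198 to 0.015 for PHGDH, -0.019 to 0.104 for SESN2. The medians ranged from -0.053 to 0.0036 for the folding genes, -0.0027 to 0.11 for the ATF4 targets and -0.040 to 0.0015 for the enzymes, with the folding genes and the enzymes above 0 without shRNA 3 and the ATF4 targets below 0 without shRNA 1. The number of arrays, 5, limits the precision throughout, and the table gives no signal over background.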
